A study of Mus musculus with 2 samples.

Results

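The genes described here encode the machinery of oxidative phosphorylation. They are the 109 rows of a 32544-row gene table whose symbols name subunits of the respiratory chain complexes I to IV or of ATP synthase (complex V), together with assembly factors of complex I that share a subunit prefix. Of these rows, 13 are encoded by the mitochondrial genome (mt-encoded), 88 are nuclear-encoded subunits and 8 are nuclear-encoded complex I assembly factors. The 109 rows carry 108 distinct symbols, because Atp5o is listed under a pair of identifiers, and the second of them had no counts in either library. Ndufa4 was placed in complex I by its symbol, although its protein is now assigned to complex IV.

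The counts come from single-cell RNA sequencing of bone marrow-derived monocytes (BMDMs) from mice, set on the path to osteoclasts (OCs), the cells that resorb bone. Both cultures were grown with 50 ng/ml M-CSF, a survival factor of the monocytic lineage, and 100 ng/ml RANKL, the cytokine that induces OCs. The control library came from cells whose genotype is given only as control, and the mutant library from LysM-Cre;Arid1afl/fl cells, in which a recombinase expressed from the Lyz2 locus acts on a floxed Arid1a, which encodes a component of the chromatin remodeler BAF, in myeloid cells. Each genotype is represented by 1 library, the number of animals behind it was not stated, and genotype and library cannot be told apart. No test between genotypes was therefore possible, and every interval below is a 95% interval for counting error alone.

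In the inner mitochondrial membrane, complexes I and II take electrons from NADH and succinate, complex III passes them to cytochrome c, and complex IV passes them to oxygen. The proton gradient that complexes I, III and IV build drives ATP synthase. Complexes I, III, IV and V are built from both genomes, whereas complex II is entirely nuclear-encoded. The mitochondrial genome is transcribed as long precursors that are then cut into the separate RNAs, so its genes share promoters, while each nuclear gene has its own. Maturing OCs are known to be rich in mitochondria.

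The 3′ kit primes on poly(A), so mt-encoded RNAs are read toward their 3′ ends. Where those ends lie relative to the coding part of each gene was not measured. The coding ends of 6 abundant genes that span the range of mutant over control ratios are shown here. The last 60 bases of each are given 5′ to 3′ from GRCm39 chromosome M, plus strand, with the last codon in capitals. mt-Nd1 runs from 2751 to 3707, mt-Nd2 from 3914 to 4951, mt-Co1 from 5328 to 6872, mt-Co2 from 7013 to 7696, mt-Co3 from 8607 to 9390 and mt-Cytb from 14145 to 15288.
mt-Nd1: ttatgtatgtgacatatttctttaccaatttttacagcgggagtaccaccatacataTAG
mt-Nd2: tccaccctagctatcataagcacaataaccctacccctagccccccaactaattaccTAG
mt-Co1: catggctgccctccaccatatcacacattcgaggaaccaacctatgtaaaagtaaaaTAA
mt-Co2: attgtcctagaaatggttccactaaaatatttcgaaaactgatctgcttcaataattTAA
mt-Co3: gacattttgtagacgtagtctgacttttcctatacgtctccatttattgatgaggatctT
mt-Cytb: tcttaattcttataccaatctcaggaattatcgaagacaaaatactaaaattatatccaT
mt-Co3 and mt-Cytb end in a lone T, as mt-Nd4 does, and the remaining 10 genes end in a complete TAA or TAG. The longest run of A inside the gene was 8 bases in mt-Nd2, 7 in mt-Co1, 6 in mt-Nd1 and 4 in mt-Co2. Whether priming inside the genes plays a part in the values was not tested.

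mt-Atp8 and mt-Atp6 lie on a shared transcript and overlap by 43 bases, from 7927 to 7969 of chromosome M. In the overlap, shown here because reads from it cannot be given to either gene, the capitals mark the start codon of mt-Atp6 and the stop codon of mt-Atp8.
mt-Atp8 and mt-Atp6 overlap: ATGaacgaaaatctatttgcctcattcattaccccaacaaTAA
mt-Nd4l and mt-Nd4 overlap by 7 bases in the same way. mt-Nd6, the mt-encoded gene on the minus strand, overlaps mt-Nd5 by 14 bases, and whether counting used the strand was not stated. mt-Atp8, mt-Nd4l, mt-Nd4, mt-Nd5 and mt-Nd6 are uncertain for that reason. A second source of uncertainty is a nuclear copy on chromosome 1 (GRCm39, 24651485 to 24655086), which holds the last 300 bases of mt-Co1, mt-Co2, mt-Atp6, mt-Co3 and mt-Nd3, and the whole of mt-Atp8 and mt-Nd4l, with 100% identity. The 8 genes annotated within it are absent from the gene table used for counting. How reads that match both places were assigned was not stated. The 7 genes with such a copy include both mt-Co1 and mt-Co3, whose comparisons between libraries differed most within complex IV.

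Promoters of nuclear members were examined for the letters bound by regulators of mitochondrial genes. Of 87 nuclear subunit symbols, 70 matched RefSeq (GRCm38.p6), with 75 promoters of 300 bases, from 250 bases before to 50 bases after the start. The core of the NRF1 site, GCGC-NN-GCGC, was found on either strand in 26.7% of them and in 6.23% of all 32851 promoters. The ETS core CCGGAAG, a site type of the GABP factor, was found in 22.7% against 8.86%. The YY1 core ATGGCGG was found in 14.7% against 4.05%. A match to the letters is not evidence of binding, and no binding was measured here. Shown are the promoters of the nuclear members that were lowest and highest in the mutant library relative to the control library. The promoters of Atp5pb, the lowest nuclear subunit, and of Uqcrfs1 were examined as well, and neither held any of these cores. Ndufaf4 is not a subunit, so its promoter is not among those behind the shares. Ndufaf4, an assembly factor of complex I, lies at chr4:24897833-24898132 (plus strand), and its capitals mark an NRF1 core, which reads the same way in both directions. Ndufa1, an accessory subunit of complex I, lies at chrX:37191189-37191488 (minus strand), and its capitals mark a YY1 core read on the other strand.
Ndufaf4: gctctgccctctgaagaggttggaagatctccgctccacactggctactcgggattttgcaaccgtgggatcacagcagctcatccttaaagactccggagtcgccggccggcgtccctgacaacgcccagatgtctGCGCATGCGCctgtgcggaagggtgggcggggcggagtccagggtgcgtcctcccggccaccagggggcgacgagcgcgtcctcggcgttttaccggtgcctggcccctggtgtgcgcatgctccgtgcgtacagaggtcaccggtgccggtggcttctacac
Ndufa1: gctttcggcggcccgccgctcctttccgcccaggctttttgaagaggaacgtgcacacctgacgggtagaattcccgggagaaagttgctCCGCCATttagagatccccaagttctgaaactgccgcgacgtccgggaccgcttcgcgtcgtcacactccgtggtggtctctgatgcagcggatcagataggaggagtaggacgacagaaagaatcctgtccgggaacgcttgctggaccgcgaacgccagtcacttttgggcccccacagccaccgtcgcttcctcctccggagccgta

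Cells were barcodes with at least 500 detected genes, which left 6344 of 6455 barcodes in the control library and 5755 of 5865 in the mutant library. They held 163904461 and 131724789 unique molecular identifiers (UMIs, each standing for 1 captured mRNA molecule), with medians of 23871.5 and 21565 UMIs per cell. The libraries shared 8 barcode sequences. Arid1a, the targeted gene, was counted at 52.0 and 20.5 counts per 1000000 UMIs (CPM). All 6 monocytic markers were detected in both libraries, at a summed level of 11599.8 and 7235 CPM, of which Lyz2, the locus that carries the recombinase, made 10810.3 and 5430.4 CPM. Lyz2 was the one of the 6 that was lower by at least 1.3-fold, while 4 were higher, among them Lgmn at a log2 ratio of 2.07 and Adgre1 at 1.86, and the median over the 6 was 0.62. Of 6 neutrophil markers 5 reached 20 CPM, and all 5 were higher in the mutant library by at least 1.3-fold. They summed to 274 and 2059 CPM, and the stromal markers, none of which reached 20 CPM, to 6.69 and 12.8 CPM. Erythroid, B cell and T cell markers each summed to at most 1.25 CPM. The part of neutrophils and stromal cells in the results was not tested, and values without cells that bear their markers are given beside the state comparison. No cell was removed for its mitochondrial share, since that share is made of the genes described.

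The mt-encoded subunits were lower in the mutant library, and the nuclear subunits were nearly level. The 13 mt-encoded genes together took 1.95% of UMIs in the control library and 1.28% in the mutant library, a log2 ratio of mutant over control of -0.61 (-0.62 to -0.61). The 88 nuclear subunit rows took 3.31% and 3.13%, a log2 ratio of -0.081 (-0.083 to -0.079). There were thus 0.591 mt-encoded UMIs for each nuclear subunit UMI in the control library and 0.408 in the mutant library, a log2 ratio of -0.53. This ratio does not depend on how the libraries are scaled. The same split ran through each complex that is built from both genomes. In complex I the mt-encoded sum had a log2 ratio of -0.88 and the nuclear sum one of -0.056. In complex III the values were -0.91 and -0.17, in complex IV -0.46 and -0.043, and in ATP synthase -0.54 and -0.11. Complex II, which has no mt-encoded subunit, stood at -0.062. Cytosolic ribosomal protein genes, an abundant class with no part in respiration, were lower as well, at -0.40, and mitochondrial ribosomal protein genes at -0.27.

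Weighting each cell alike, in place of each UMI, moved the mt-encoded log2 ratio to -0.42. The median of the 5221 genes that averaged 20 CPM or more was 0.021, and it moved to -0.088 when the totals excluded mt-encoded and cytosolic ribosomal protein genes. Under those totals the mt-encoded sum stood at -0.72 and the nuclear subunit sum at -0.19.

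**Figure D1:**
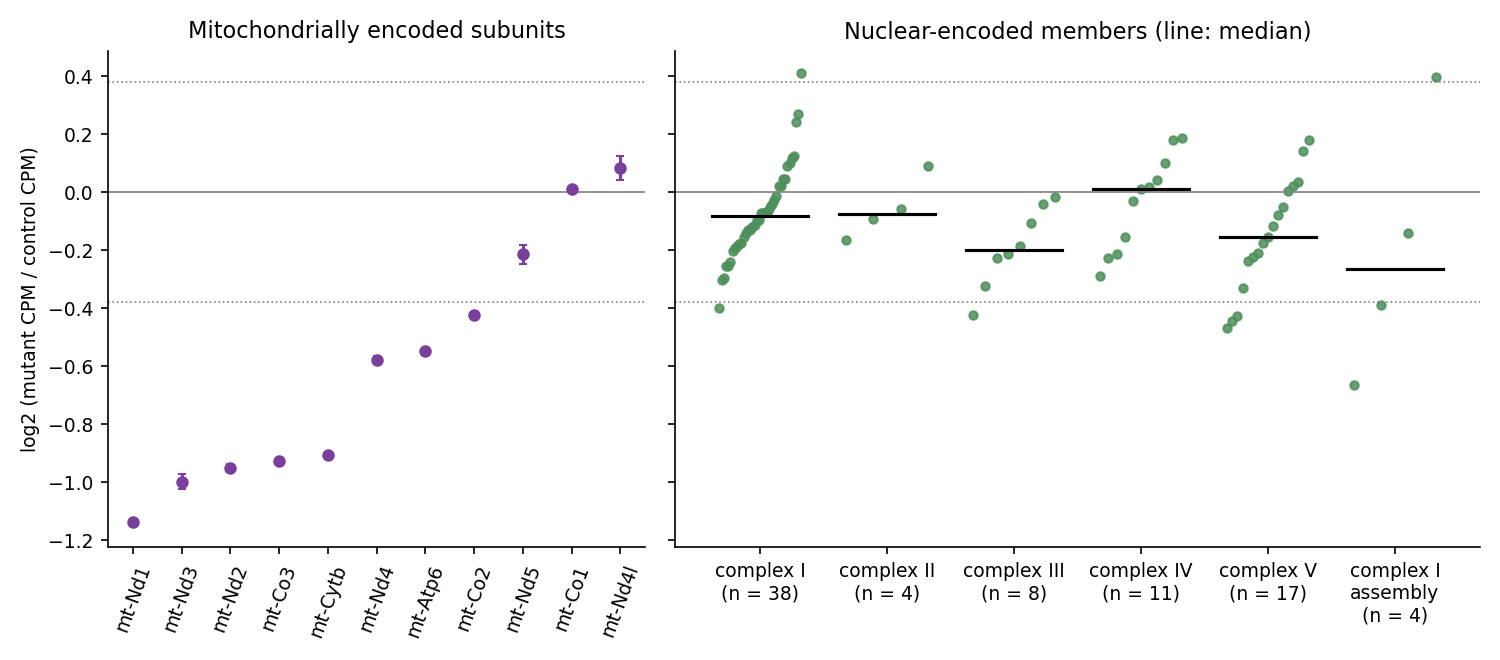
Log2 ratio of mutant over control CPM for members that averaged 20 CPM or more. Left, 11 of 13 mt-encoded genes with 95% counting intervals, from mt-Nd1 at -1.14 to mt-Nd4l at 0.084. Right, 82 nuclear-encoded members by complex, each point a gene and each line the median, with dotted lines at 1.3-fold. Of the mt-encoded genes, 7 lie below the lowest nuclear subunit.

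Within the mitochondrial genome the difference was uneven. Of the 11 mt-encoded genes that reached 20 CPM, 8 were lower by at least 1.3-fold and none higher. With every cell counting alike, 5 of the 11 were lower by that much, with a median of -0.36 against -0.58. Of all 5221 genes at that level, 14.1% were lower and 20.6% higher by at least 1.3-fold. Because UMIs are counted once per molecule at the 3′ end, levels were not divided by gene length. mt-Nd1, a core subunit of complex I in the membrane, had 1984 CPM in the control library and 902 CPM in the mutant library, a log2 ratio of -1.14 (-1.15 to -1.13). mt-Nd2, another complex I subunit and the next protein gene along the genome, had 817 CPM in the control library and 422 CPM in the mutant library, a log2 ratio of -0.95 (-0.97 to -0.94). mt-Nd3, also of complex I, had 235 and 118 CPM, with an interval of the log2 ratio from -1.03 to -0.97. These complex I genes thus stood near a log2 ratio of -1. mt-Cytb, the mt-encoded subunit of complex III, had 2738 CPM in the control library and 1461 CPM in the mutant library, a log2 ratio of -0.91 (-0.91 to -0.90). mt-Co3, a structural subunit of complex IV, had 3234 CPM in the control library and 1699.8 CPM in the mutant library, a log2 ratio of -0.93 (-0.93 to -0.92).

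A second set of genes differed less. mt-Nd4 stood at -0.58 and mt-Atp6, the proton channel subunit of ATP synthase, at -0.55 (3347 and 2292 CPM). mt-Co2, which takes electrons from cytochrome c, stood at -0.43 (3751 and 2793 CPM), and mt-Nd5 at -0.21 (-0.25 to -0.18). mt-Co1, the catalytic subunit of complex IV, had 2145 CPM in the control library and 2163 CPM in the mutant library, a log2 ratio of 0.012 (0.0052 to 0.019), so that its level differed by under 1%. mt-Nd4l, at 62.1 and 65.8 CPM, stood at 0.084 (0.042 to 0.13). The remaining genes, mt-Atp8 and mt-Nd6, were below 20 CPM. mt-Atp8 was at 10.8 and 10.9 CPM and mt-Nd6 at 7.35 and 8.07 CPM. With mt-encoded genes and the cytosolic ribosomal protein genes excluded from the totals, mt-Co1 stood at -0.097 and mt-Nd4l at -0.025, so neither sign held under both scalings, while their distance from the other mt-encoded genes does not depend on the scaling.

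The unequal makeup was seen as a shift in what the mitochondrial UMIs consisted of. mt-Nd1 made 10.2% of the mt-encoded UMIs in the control library and 7.06% in the mutant library, and mt-Co3 16.6% and 13.3%. There were 1.08 mt-Co1 UMIs for each mt-Nd1 UMI in the control library and 2.40 in the mutant library. Cells were then binned by their mitochondrial share, with bounds set after the data were seen. The differences between libraries in mt-Co1, mt-Nd1 and mt-Co3 held from the poorest to the richest cells. Over 9 bins, mt-Co1 made 10.6% to 11.7% of mt-encoded UMIs in control cells and 16.3% to 18.0% in mutant cells. The ranges of the libraries did not overlap for mt-Nd1, mt-Co1, mt-Co2, mt-Co3, mt-Nd3 and mt-Nd4l. For mt-Co2 they were 18.5% to 19.7% and 20.9% to 22.4%. They overlapped for the other 7 genes, among them mt-Cytb, at 12.9% to 19.4% and 10.3% to 15.9%, and mt-Atp6, at 14.1% to 17.5% and 15.8% to 18.4%. The makeup thus also changed with the mitochondrial share of the cells. mt-Cytb was highest in the cells with the lowest mitochondrial share in both libraries.

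**Figure D2:**
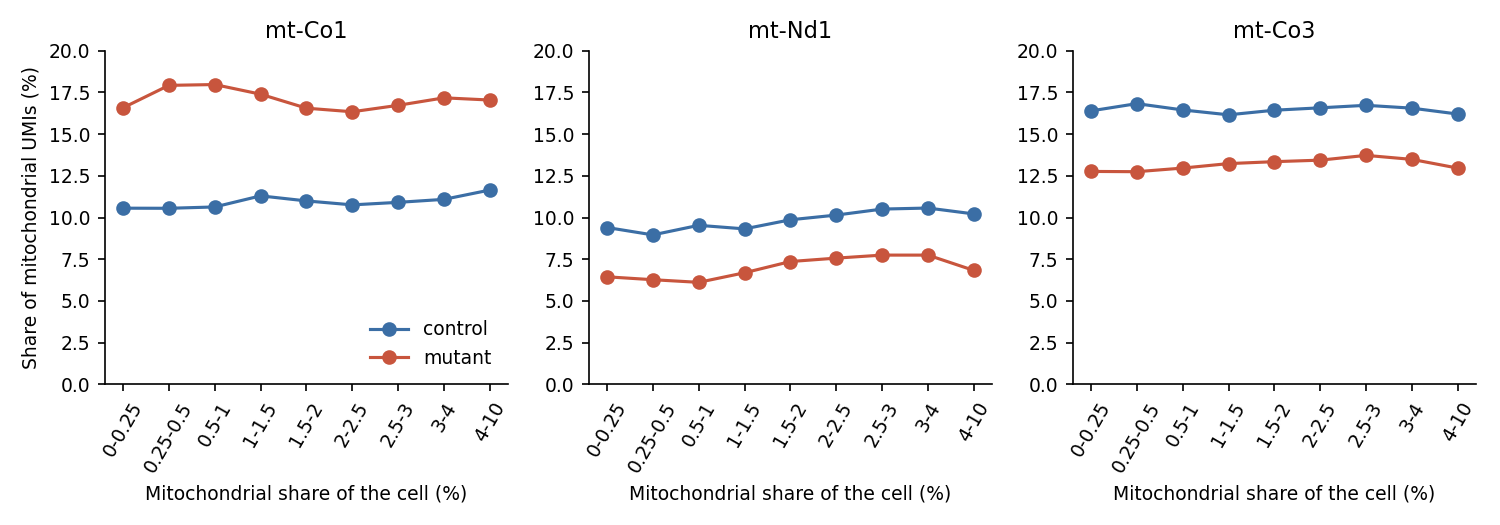
Share of all mt-encoded UMIs taken by mt-Co1, mt-Nd1 and mt-Co3 (vertical axis, %) in cells binned by the mitochondrial share of their UMIs (horizontal axis, %), for cells of at least 5000 UMIs. mt-Co1 lies higher in the mutant library in each of the 9 bins, and mt-Nd1 and mt-Co3 lie lower.

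The share of mt-encoded UMIs varied widely from cell to cell, and that of nuclear subunits varied less. In the control library the median cell had 2.06% mt-encoded UMIs, with quartiles of 1.21% and 2.65%. In the mutant library the median was 1.29%, with quartiles of 0.573% and 1.88%. For nuclear subunits the medians were 3.30% and 3.11%, with quartiles of 3.02% and 3.60% in the control library and 2.78% and 3.46% in the mutant library. The mutant medians of the mt-encoded share lay below the control ones in each of 6 bins of total UMIs, at 1.05% to 1.47% against 1.76% to 2.10%.

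In both libraries a group of cells had a small share of mt-encoded UMIs. Under a bound of 0.5%, set after the data were seen, these were 853 of 6114 control cells of at least 5000 UMIs, or 14.0% (exact binomial interval 13.1% to 14.8%). In the mutant library they were 1155 of 5323, or 21.7% (20.6% to 22.8%). The same bound served both libraries, although the median shares over all cells were 2.06% and 1.29%. These low-share cells together held 1791 mt-encoded CPM in the control library and 1846 CPM in the mutant library. Their median depth was 23752 control and 23482 mutant UMIs, against 24320 and 22086 in the remaining cells of at least 5000 UMIs. Their nuclear subunit level differed little from that of the other cells, with log2 ratios of 0.032 in the control library and 0.029 in the mutant one. Across cells thinned to 5000 UMIs, mt-encoded and nuclear subunit UMIs had a Spearman correlation of -0.13 in the control library and -0.10 in the mutant one, a description over cells that share a library and a fixed total. Without the cells under 0.5%, the mt-encoded log2 ratio of mutant over control was -0.49 and the nuclear one -0.084.

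**Figure D3:**
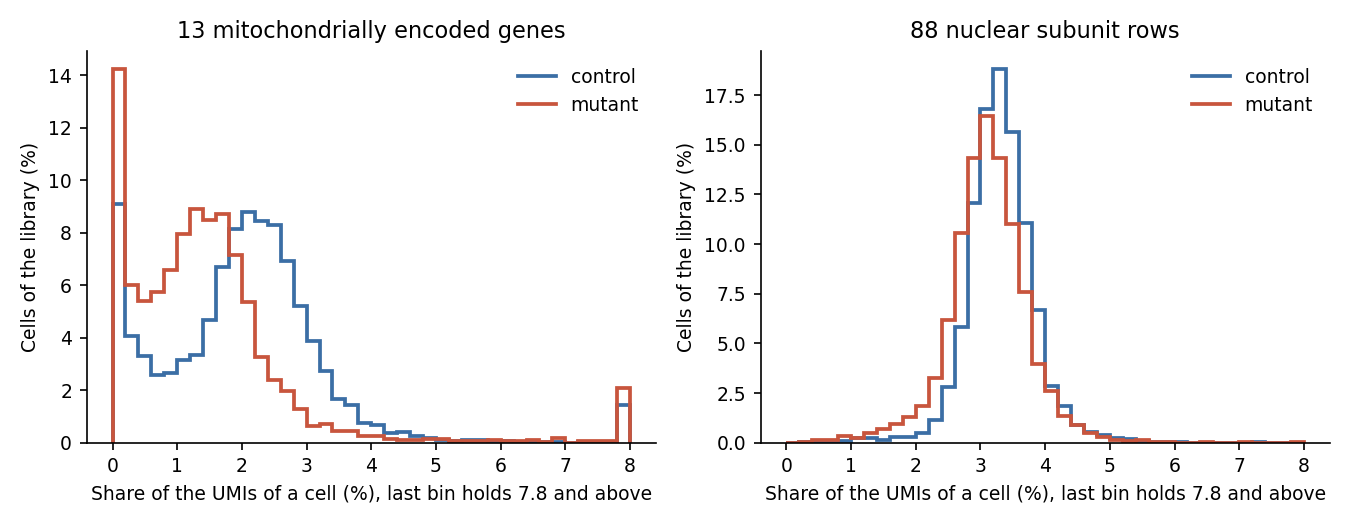
Histograms of the share of a cell's UMIs (horizontal axis, %, in steps of 0.2) from the 13 mt-encoded genes and from the 88 nuclear subunit rows, as the percent of cells of each library (vertical axis). The mt-encoded share has a peak near 0 in both libraries and a second peak that lies lower in the mutant library, while the nuclear shares nearly overlie.

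Among the nuclear subunits, 78 of 88 rows reached 20 CPM. Their log2 ratios of mutant over control had a median of -0.096 and ran from -0.47 to 0.41. Of the 78, 5 were lower by at least 1.3-fold and 1 higher, which are shares of 6.41% and 1.28%, both under those of all genes given above. With the totals that exclude mt-encoded and cytosolic ribosomal protein genes, 10 were lower (12.8%) and none higher, against 21.3% and 15.9% of all genes. With median-of-ratios size factors, 9 were lower (11.5%) and none higher, against 19.9% and 16.7% of all genes. The 3 lowest ratios were in ATP synthase. Atp5pb, the b subunit of the stator stalk, had 531 CPM in the control library and 384 CPM in the mutant library, a log2 ratio of -0.47 (-0.48 to -0.45). Atp5a1, the alpha subunit of the catalytic head, stood at -0.44 and Atp5d, the delta subunit of the rotor, at -0.43. Both complete the count of 5 and were named after their values were seen. The highest ratio of this complex was that of Atp5md, a small membrane subunit, at 0.18 (425 and 481 CPM). The 3 genes for the same proton-carrying c subunit were all expressed. Atp5g1 had 873 and 694 CPM, Atp5g2 664 and 674 CPM, and Atp5g3 465 and 402 CPM, with log2 ratios of -0.33, 0.021 and -0.21.

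In complex I, with 38 nuclear rows at that level, the median was -0.084. Ndufb10, an accessory subunit of the membrane arm, was the lowest with 254 CPM in the control library and 193 CPM in the mutant library, a log2 ratio of -0.40 (-0.42 to -0.38). Ndufa1 was the highest with 193 CPM in the control library and 256 CPM in the mutant library, a log2 ratio of 0.41 (0.39 to 0.43). Of the 78 nuclear subunits, Ndufa1 alone was past 1.3-fold in the higher direction, and with mt-encoded and ribosomal protein genes excluded from the totals it stood at 0.30. In complex II, Sdhb, the iron-sulfur subunit, stood at -0.16 and Sdhc, a membrane anchor, at 0.091. In complex III, with a median of -0.20, each of 8 subunits had a ratio below 0, against 2478 of all 5221 genes. Uqcrfs1, the Rieske iron-sulfur protein, was the lowest with 162 CPM in the control library and 121 CPM in the mutant library, a log2 ratio of -0.42 (-0.45 to -0.39), and Uqcrq the highest at -0.017. In complex IV the median of 11 subunits was 0.011, from Cox5a at -0.29 (844 and 691 CPM) to Cox6a1 at 0.19 (405 and 460.5 CPM).

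Of the complex I assembly factors, 4 of 8 reached 20 CPM. Ndufaf4 had 78.4 CPM in the control library and 49.4 CPM in the mutant library, a log2 ratio of -0.67 (-0.71 to -0.62), the lowest ratio of any nuclear member at that level. Ndufaf3 had 49.2 CPM in the control library and 64.8 CPM in the mutant library, a log2 ratio of 0.40 (0.35 to 0.44), and stood at 0.29 with the same exclusion, inside 1.3-fold. Ndufaf2 stood at -0.39 and Ndufaf8 at -0.14. Of all members, 50 overlap a gene on the opposite strand, among them Atp5pb, Atp5a1, Atp5d, Atp5md, Cox5a, Uqcrq, Sdhd, Ndufaf2, Ndufaf3 and Ndufaf8, and their counts may include reads of that partner. Ndufaf4, Ndufb10, Ndufa1 and Uqcrfs1 have no such overlap. Many nuclear subunit genes also have processed pseudogenes, and how reads that match both were assigned was not stated.

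Several complex IV subunits exist in forms that are used in different tissues, and these cells used the forms known from most tissues. Cox4i1 was counted at 1330.5 and 1136 CPM, while Cox4i2, its oxygen-sensitive alternative, had 15 and 10 UMIs in all. Cox6a1 was at 405 and 460.5 CPM, and Cox6a2, the heart and muscle form, at 0.256 and 2.03 CPM. Cox6a2 overlaps Itgad, an integrin gene on the opposite strand, so its higher value in the mutant library cannot be given to either gene. Cox7a2 was at 942 and 949 CPM against 10.4 and 10.3 CPM for the muscle form Cox7a1, and Cox7a2l, a related protein of supercomplexes, at 253 and 218 CPM. Cox6b1 was at 849 and 910.3 CPM and the testis form Cox6b2 at 0.836 and 1.21 CPM. Cox7b and Cox8a were at 571 and 1429 CPM in the control library, whereas Cox7b2, Cox8b and Cox8c had no UMI in either library. Ndufa4 was at 795 and 744 CPM, and its alternative Ndufa4l2 had 5 UMIs in the control library and 1 in the mutant library. In all, 16 of 109 rows were below 20 CPM and 5 had no UMI, the fifth being Ndufb11b besides the second Atp5o row.

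To compare states of the culture, each cell of at least 5000 UMIs was thinned at random to 5000 UMIs. A cell was called cycling when the proliferation genes Mki67, Top2a, Aurka and Cdk1 together gave 3 or more of those UMIs, and was put in the OC-transcript state when the OC genes Ctsk, Mmp9, Acp5 and Dcstamp together did. This left 3344 control and 3408 mutant cells in neither state, 2175 and 1722 cycling cells, 338 and 133 OC-transcript cells and 257 and 60 cells in both. Levels within a state use all UMIs of its cells. The shallower cells, 230 and 432, were left out. Median depth in cells of neither state, cycling cells and OC-transcript cells was 22036, 27089 and 25701 UMIs in the control library and 21176, 25542 and 20640 UMIs in the mutant library. Cells of a state come from the same library and are not replicates.

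Cycling cells differed little from the others in oxidative phosphorylation genes. In the control library the mt-encoded sum was 19039 CPM in cycling cells and 18659.9 CPM in cells of neither state, a log2 ratio of 0.029. In the mutant library the ratio was -0.0024 (-0.0071 to 0.0023), and its sign turned under several settings. The nuclear subunit sum was slightly lower in cycling cells, with log2 ratios of -0.060 in the control library and -0.039 in the mutant one. No member was past 1.3-fold in either library, whereas 1.54% of all genes were lower and 8.64% higher by that much in the control library, and 2.23% and 9.55% in the mutant library. Of 78 nuclear subunits, 65 were lower in cycling cells of the control library and 52 in those of the mutant library. Over all genes, 1883 of 5055 were lower in the control library and 2214 of 5342 in the mutant library. The farthest down in the control library was Ndufa6, an accessory subunit of complex I, at -0.23 (-0.16 in the mutant library), followed by Ndufaf3 at -0.19 (0.041), Ndufa7 at -0.17, Ndufa13 at -0.15 and Ndufa1 at -0.15. The farthest up was Ndufaf2, at 0.22 (0.20), followed by Uqcrfs1 at 0.14, Sdhd at 0.12, Ndufab1 at 0.085 and Ndufv1 at 0.079. Mitochondrial ribosomal protein genes, by contrast, were higher in cycling cells of both libraries, at 0.072 and 0.066.

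Cells with OC transcripts carried more of both kinds of subunit in the control library. The mt-encoded sum was 22729 CPM in them and 18659.9 CPM in cells of neither state, a log2 ratio of 0.28 (0.28 to 0.29). The nuclear subunit sum was 39099.6 and 33105 CPM, a log2 ratio of 0.24. Cytosolic ribosomal protein genes were higher by about as much, at 0.29, and mitochondrial ribosomal protein genes at 0.35. Gates on all UMIs in place of 5000 per cell, with the shallower cells included, gave 0.082 for mt-encoded and 0.085 for nuclear subunits. Of the members that reached 20 CPM in this comparison, 6 of 11 mt-encoded genes, 16 of 78 nuclear subunits and 3 of 5 assembly factors were higher by at least 1.3-fold and none was lower. Of all 4926 genes, 16.7% were higher and 14.5% lower. The nuclear share of 20.5% past 1.3-fold higher is near that background, while 71 of 78 nuclear subunits had a ratio above 0, with a median of 0.27 against 0.094 for all genes. A ratio above 0 was seen for 2999 of all 4926 genes.

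**Figure D4:**
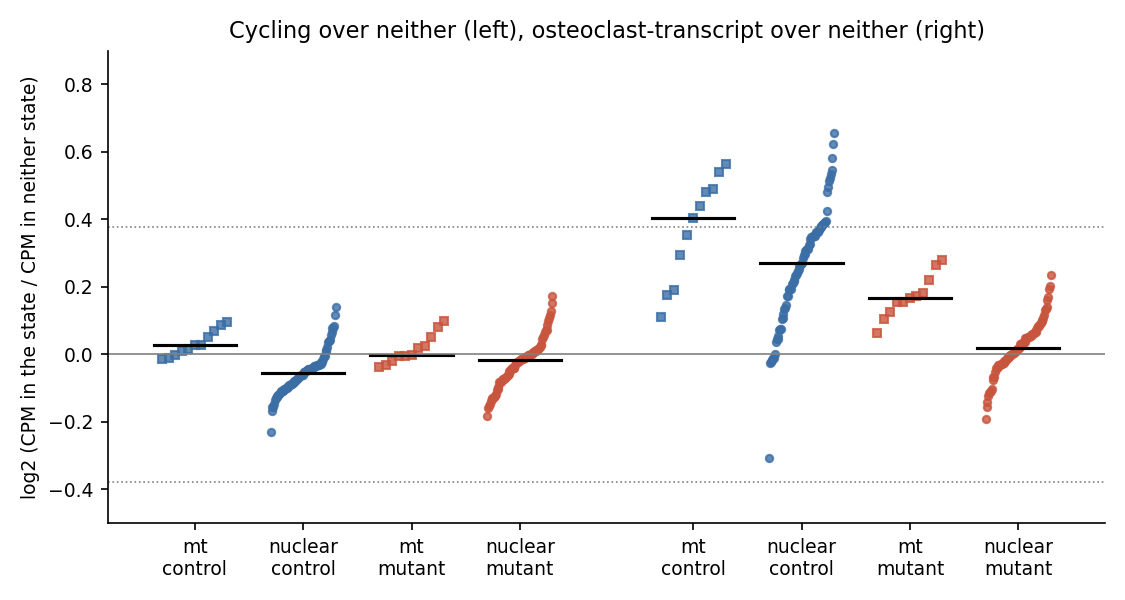
Log2 ratio of CPM in a state over CPM in cells of neither state, for the 11 mt-encoded genes (squares) and 78 nuclear subunits (circles) that averaged 20 CPM or more over both libraries, in the control (blue) and mutant (red) library. Lines are medians and dotted lines mark 1.3-fold. The points stay within 1.3-fold for cycling cells, and in OC-transcript cells those of the control library lie mostly above 0.

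By complex, the mt-encoded subunits of complex I had the highest ratio in OC-transcript control cells, at 0.43, and those of complex IV the lowest, at 0.17. mt-Nd5 was at 0.57, mt-Nd4l at 0.54, mt-Nd3 at 0.49, mt-Nd2 at 0.48, mt-Nd1 at 0.44 and mt-Cytb at 0.40, all past 1.3-fold. mt-Co1, at 0.11, was the least different. Among the nuclear sums complex II stood highest, at 0.39, then complex III at 0.36, ATP synthase at 0.25, complex I at 0.21 and complex IV at 0.20.

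The nuclear members farthest up were the assembly factor Ndufaf4, with 72.1 CPM in control cells of neither state and 124 CPM in OC-transcript cells, a log2 ratio of 0.79, and Uqcrfs1, with 147 CPM in control cells of neither state and 232 CPM in OC-transcript cells, at 0.66. Sdhd, a membrane anchor of complex II, was at 0.62, Ndufb10 at 0.58 and Ndufab1, the acyl carrier protein of the matrix, at 0.55. The farthest down was Ndufv3, an accessory subunit of complex I, with 301 CPM in control cells of neither state and 244 CPM in OC-transcript cells, at -0.31 (-0.19 in the mutant library). Ndufaf3 was at -0.052, Ndufa13 at -0.025, Ndufb1 at -0.022 and Cox6a1 at -0.017.

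In OC-transcript cells of the mutant library the nuclear subunits were nearly level with cells of neither state, and the mt-encoded value depended on the gate. The mt-encoded sum had a log2 ratio of 0.16 (0.14 to 0.17) and the nuclear subunit sum one of 0.033 (0.023 to 0.042). No member was past 1.3-fold, where 7.24% of all genes were higher and 5.35% lower. Uqcrfs1 was at 0.023, Sdhd at -0.0096, Ndufb10 at 0.036, Ndufab1 at 0.10 and Ndufaf4 at 0.25. With gates on all UMIs and the shallower cells included, the mutant mt-encoded ratio turned to -0.26 and the nuclear one to -0.044. With at least 5 UMIs needed, 56 mutant and 273 control cells remained. The mt-encoded ratio was 0.35 in the mutant library and 0.37 in the control library. These ratios over cells of neither state of the same library thus came close to each other, on few mutant cells. They do not compare the mt-encoded level between the libraries, which is given by OC-gate UMIs below. The nuclear ratio was then 0.12 in the mutant library and 0.28 in the control library.

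The gated cells of the libraries were not alike in OC transcripts. Acp5, an OC phosphatase, was at 759 and 608 CPM in them, while Mmp9, a matrix protease, was at 395 and 61.3 CPM and Dcstamp, needed for cell fusion, at 73.3 and 13.4 CPM. Neutrophil markers summed to 16.1 CPM in the control and 647 CPM in the mutant gate, and monocytic markers to 3608 and 6155 CPM, against 13276 and 7588 CPM in cells of neither state. Their part in the difference was not tested. Cells were therefore also ordered by the number of OC-gate UMIs among 5000, with bounds set after the data were seen. In the control library the mt-encoded sum was 18593 CPM in the 4341 cells with none, 21457 CPM in 309 cells with 3 to 5, and 27863 CPM in 129 cells with 11 or more. The nuclear subunit sum was 32416, 35157 and 43681 CPM in the same cells. In the mutant library the mt-encoded sum was 12371 CPM in 3967 cells with none, 14553 CPM in 145 cells with 3 to 5 and 14251 CPM in 32 cells with 6 to 10. The nuclear subunit sum there was 31276, 31646 and 33039.6 CPM. The last mutant bin held 16 cells, at 16875 and 37356 CPM. At each bin the mutant mt-encoded sum lay below the control one, and it did not reach the control cells with no OC-gate UMI even in the last bin.

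**Figure D5:**
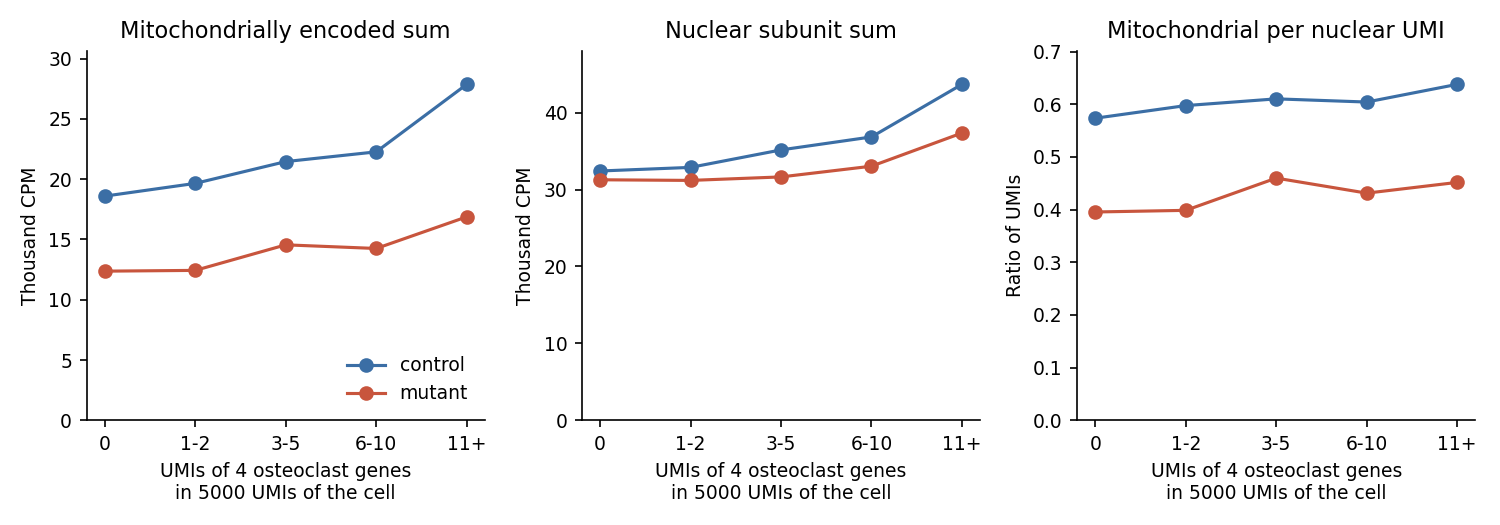
Summed CPM of mt-encoded genes, summed CPM of nuclear subunits, and mt-encoded per nuclear UMI (vertical axes) in cells binned by their UMIs of Ctsk, Mmp9, Acp5 and Dcstamp among 5000 (horizontal axis). The mutant line lies below the control line in each panel, by most in the mt-encoded sum and the ratio, and the last mutant point rests on 16 cells.

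Comparing the libraries within each state gave the mt-encoded difference again. The log2 ratio of mutant over control for the mt-encoded sum was -0.59 in cells of neither state, -0.62 in cycling cells, -0.72 in OC-transcript cells and -0.55 in cells of both states. For the nuclear subunits it was -0.069, -0.048, -0.28 and -0.12. The nuclear difference was thus larger in OC-transcript cells than in the other states. There, 32 of 78 nuclear subunits were lower by at least 1.3-fold and 1 higher, where 24.6% of all genes were lower and 27.7% higher. Cytosolic ribosomal protein genes stood at -0.58 in these cells and at -0.36 in cells of neither state. Uqcrfs1, as the subunit with the highest OC-transcript ratio in the control library, had 232 and 119 CPM in OC-transcript cells, a log2 ratio of -0.96, against -0.33 in cells of neither state. This is a description, since Uqcrfs1 was picked for its level in the same control cells. The number of mt-Co1 UMIs for each mt-Nd1 UMI was 1.13 and 2.47 in cells of neither state, 1.07 and 2.28 in cycling cells, 0.903 and 2.28 in OC-transcript cells and 0.934 and 1.76 in cells of both states (control, then mutant). Leaving out the cells with neutrophil or stromal markers, 22 control and 92 mutant cells, gave -0.61 for the mt-encoded and -0.077 for the nuclear subunit sum over all cells.

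Pathways that feed or build the respiratory chain were compared by the same measures. Of 16 genes of the tricarboxylic acid (TCA) cycle and pyruvate dehydrogenase, which supply its electrons, 3 were lower by at least 1.3-fold in the mutant library and none higher, with a median log2 ratio of -0.24. They were Idh3a, a subunit of isocitrate dehydrogenase, at -0.64, the malate dehydrogenase gene Mdh2 at -0.55 and the succinyl-CoA ligase gene Suclg2 at -0.46. Of 14 glycolysis genes, 5 were lower and 1 higher, with a median of -0.26, from Eno1 (enolase) at -0.66 to Hk2 (hexokinase) at 0.56. Both medians lay below that of the nuclear subunits, and the shares called are to be read against the 14.1% of all genes that were lower and 20.6% that were higher. Of 7 genes for cytochrome c, the inner-membrane carriers of ADP and phosphate and the outer-membrane porins Vdac1, Vdac2 and Vdac3, 2 were lower, with a median of -0.22. These were the ADP/ATP carriers Slc25a4 at -0.56 and Slc25a5 at -0.39. Of 13 further assembly factors, 3 were lower and 1 higher, from Cox10, which makes heme for complex IV, at -0.70 to Surf1, another complex IV factor, at 0.40.

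Among the genes that keep and express the mitochondrial genome, 8 of 19 found reached 20 CPM, with a median of -0.28. Of these, 2 were lower by at least 1.3-fold and 1 higher, where 14.1% of all genes were lower and 20.6% higher. Hsd17b10, a subunit of the RNase that cuts mitochondrial precursors, stood at -0.79 (123 and 71.3 CPM), and Trmt10c at -0.45 (24.3 and 17.8 CPM). The mitochondrial transcription factor Tfam, at -0.35 (28.8 and 22.7 CPM), was inside 1.3-fold. Pnpt1, a mitochondrial RNA-degrading enzyme, was higher at 0.57 (22.2 and 32.8 CPM). The partners Lrpprc and Slirp, which stabilise mitochondrial mRNAs, stood at -0.22 and 0.35. Of the regulators of mitochondrial biogenesis, 3 of 9 reached 20 CPM and none was past 1.3-fold, from Myc at -0.32 to Yy1 at -0.078. Ppargc1b, the coactivator known for this role in OCs, was below that level, at 10.3 and 5.50 CPM. In OC-transcript cells it was at 41.9 CPM in the control library, against 7.72 CPM in cells of neither state, and at 9.30 against 5.48 CPM in the mutant library.

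In OC-transcript cells of the control library the TCA genes stood above the respiratory chain and the glycolysis genes below. Of 16 TCA genes, 10 were higher by at least 1.3-fold than in cells of neither state, with a median of 0.46, and of 14 glycolysis genes 9 were lower, with a median of -0.43. Of all genes, 16.7% were higher and 14.5% lower in this comparison. In the mutant library 1 of 15 TCA genes was higher, with a median of 0.0069, while 5 of 14 glycolysis genes were lower, with a median of -0.33, where 7.24% of all genes were higher and 5.35% lower. The list of cytochrome c, carriers and porins had medians of 0.37 and 0.11, the further assembly factors 0.40 and 0.058 and the genes for mitochondrial DNA and RNA 0.47 and 0.15 in the control and mutant library. These medians are over 7, 12 and 8 genes in the control and 7, 13 and 7 in the mutant library. Among the biogenesis regulators that reached 20 CPM in both libraries, Esrra stood at 0.56 and 0.029, Yy1 at 0.0032 and 0.19 and Myc at 0.060 and 0.27. In cycling cells no gene of these 6 lists was past 1.3-fold in either library.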

How the data were processed

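The authors prepared libraries with a 10x Genomics 3′ kit and counted UMIs in Cell Ranger (version 6.1.0 in the file headers). The deposited values are raw counts per gene and barcode, with no normalization. The study names GRCm39 as its genome, and whether the counts precede the aggregation named in the methods was not stated. Coordinates of genes shown here are from a GRCm39 GENCODE annotation. Here, barcodes with at least 500 genes were kept, without a filter on mitochondrial share or doublets (both tried as alternatives). Counts were summed per library or state and scaled to 1000000 UMIs. Log2 ratios have exact conditional Poisson intervals and shares Clopper-Pearson intervals at 95%. Members counted toward medians and toward 1.3-fold had a mean of at least 20 CPM over the groups compared. Steps were tested on simulated counts (python 3.11.15, scipy 1.17.1, edgeR 4.0.16 for TMM factors). Named genes are all mt-encoded genes, the lowest and highest nuclear member of each complex, the 5 lowest and highest per state in the control library, and alternative subunits. Members, lists, gates and bounds were chosen with earlier results of these data known, so no pattern here is independent support of them.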

Additional observations from a re-analysis of the deposited data

Results flagged for a closer look

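In cycling cells, 3 values had opposite signs in the libraries with counting intervals that exclude 0. The difference between libraries was not tested, because each genotype has 1 library. The mt-encoded sum of complex IV stood at a log2 ratio over cells of neither state of 0.019 in the control library and -0.015 in the mutant one. mt-Co1 stood at 0.018 and -0.037, and Atp5pb at -0.042 and 0.029. All of these are far inside 1.3-fold. No share of all genes with opposite signs is given beside them, so their number is not read as a result. The sign of the mt-encoded sum in cycling cells also depended on the gate. Neutrophil markers summed to 373 CPM in cycling cells and 213 CPM in cells of neither state of the control library. In the mutant library they summed to 3565 and 1053 CPM, and their part was not tested.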

How the results depend on the processing

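The mt-encoded sum, the nuclear subunit sum and their ratio kept their sign for mutant over control under all alternatives tried. Of the recomputed sums, ratios, medians and counts, 83 lay outside the bounds set for them and 54 inside. For sums and ratios the bounds were the counting intervals, which are narrow. For the median they were the medians of the gene-wise limits, and for counts a change of 1.5-fold. The reduced totals leave out mt-encoded and cytosolic ribosomal protein genes. The cause of each shift was not tested.

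The mt-encoded log2 ratio of mutant over control, -0.61 as given above, was -0.72 with the reduced totals, -0.68 with TMM factors, -0.70 with median-of-ratios factors, -0.42 with every cell counting alike, -0.63 without cells over 10% mitochondrial UMIs, -0.62 with at least 1000 genes per cell, -0.62 in cells of 10000 to 40000 UMIs and -0.49 without cells under 0.5% mitochondrial UMIs. The nuclear subunit ratio, -0.081 as given above, was -0.19 with the reduced totals, -0.14 with TMM factors, -0.17 with median-of-ratios factors, -0.091 with every cell counting alike, -0.077 without cells bearing neutrophil or stromal markers and -0.084 without cells under 0.5% mitochondrial UMIs. The ratio of mt-encoded to nuclear UMIs, -0.53 as given above, was -0.33 with every cell counting alike, -0.54 without cells over 10% mitochondrial UMIs, -0.54 with at least 1000 genes per cell and -0.53 without likely doublets. The median over nuclear subunits, -0.096 as given above, was -0.20 with the reduced totals, -0.16 with TMM factors and -0.18 with median-of-ratios factors. The number of members past 1.3-fold, 17 as given above, was 11 with every cell counting alike and 6 at 1.5-fold. In cycling cells of the control library the mt-encoded ratio, 0.029 as given above, was 0.043 with every cell counting alike, 0.037 after thinning to 2000 UMIs, -0.080 with gates on all UMIs, 0.023 without likely doublets, 0.042 in cells of 10000 to 40000 UMIs and -0.0077 without Mki67. The nuclear ratio there, -0.060 as given above, was -0.068 with every cell counting alike, -0.056 after thinning to 10000 UMIs, -0.071 with 5 UMIs needed and -0.052 without Mki67. In cycling cells of the mutant library the mt-encoded ratio, -0.0024 as given above, was -0.010 with the reduced totals, 0.028 with every cell counting alike, 0.087 after thinning to 2000 UMIs, 0.053 after thinning to 10000 UMIs, -0.12 with gates on all UMIs, 0.041 in cells of 10000 to 40000 UMIs, 0.052 with 5 UMIs needed and 0.010 without Mki67. The nuclear ratio there, -0.039 as given above, was -0.047 with the reduced totals, -0.062 with every cell counting alike, -0.049 after thinning to 2000 UMIs, -0.031 after thinning to 10000 UMIs, -0.021 with gates on all UMIs, -0.043 without likely doublets, -0.035 without cells bearing neutrophil or stromal markers, -0.052 in cells of 10000 to 40000 UMIs, -0.044 with 5 UMIs needed and -0.032 without Mki67. In OC-transcript cells of the control library the mt-encoded ratio, 0.28 as given above, was 0.39 with the reduced totals, 0.26 with every cell counting alike, 0.34 after thinning to 2000 UMIs, 0.082 with gates on all UMIs, 0.29 without cells over 10% mitochondrial UMIs, 0.29 without likely doublets, 0.37 with 5 UMIs needed and 0.37 without Acp5. The nuclear ratio there, 0.24 as given above, was 0.34 with the reduced totals, 0.22 with every cell counting alike, 0.30 after thinning to 2000 UMIs, 0.19 after thinning to 10000 UMIs, 0.085 with gates on all UMIs, 0.25 without likely doublets, 0.25 in cells of 10000 to 40000 UMIs, 0.28 with 5 UMIs needed and 0.27 without Acp5. In OC-transcript cells of the mutant library the mt-encoded ratio, 0.16 as given above, was 0.18 with the reduced totals, 0.30 after thinning to 2000 UMIs, 0.11 after thinning to 10000 UMIs, -0.26 with gates on all UMIs, 0.14 without cells over 10% mitochondrial UMIs, 0.13 in cells of 10000 to 40000 UMIs, 0.35 with 5 UMIs needed and 0.32 without Acp5. The nuclear ratio there, 0.033 as given above, was 0.050 with the reduced totals, 0.0093 with every cell counting alike, 0.11 after thinning to 2000 UMIs, 0.0059 after thinning to 10000 UMIs, -0.044 with gates on all UMIs, 0.12 with 5 UMIs needed and 0.13 without Acp5. Signs in the cycling comparison of mt-encoded genes, and in the OC-transcript comparison of the mutant library, therefore depended on the gate. With every cell counting alike, 5 mt-encoded genes, 5 nuclear subunits and 1 assembly factor were past 1.3-fold. Of all genes, 13.8% were then lower and 22.0% higher. With TMM factors 7 nuclear subunits were lower and none higher, against 17.9% and 17.7% of all genes. Under the reduced totals 21.3% of all genes were lower and 15.9% higher by 1.3-fold, the reverse of the order under totals of all UMIs. For mt-Co1 per mt-Nd1, chosen after seeing the data like the setting without cells under 0.5%, the log2 ratio of mutant over control was 1.15 and ran from 1.15 to 1.20. No named gene that was past 1.3-fold changed sign under the alternatives run.

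No paired analysis was possible because each genotype has 1 library with no shared replicate number. For the same reason no replicate was left out and no count model was run. Depth limited Cox4i2 and Ndufa4l2, with few UMIs. mt-Nd6, with 1205 and 1063 UMIs, and mt-Atp8, with 1774 and 1442 UMIs, were left out of medians for their level. Both also remain uncertain for the overlaps given above. Strand use in counting and the fate of reads that match the nuclear copy on chromosome 1 limit the genes named for them. OC-transcript cells of the mutant library numbered 133, with 56 left at 5 UMIs needed and 23 without Acp5.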

Other observations

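The barcodes left out for having fewer than 500 genes belong to no comparison. They numbered 111 in the control library and 110 in the mutant one, with medians of 726 and 663 UMIs. Of their UMIs, 46.6% were mt-encoded in the control library and 22.1% in the mutant one, and 1.84% and 2.59% came from nuclear subunits. Among kept cells of fewer than 5000 UMIs, which were in no state, the quartiles of the mt-encoded share were 0.122% and 12.5% in the control and 0.0795% and 6.55% in the mutant library, so that these cells held both the lowest and the highest shares.

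Cells in both states were few but stood out among mt-encoded genes. Their mt-encoded sum had a log2 ratio over cells of neither state of 0.34 in 257 control cells and 0.38 in 60 mutant cells, while the nuclear subunit sum had 0.11 and 0.053. mt-encoded subunits of complex I stood at 0.50 and 0.59 in them. Stromal markers summed to 6.45 and 178 CPM in these cells, and their part in the values was not tested.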
